A study of Mus musculus with 4 samples.

Results

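A set of 10 genes of amino acid transport that T cells are known to use were described in mouse regulatory T (Treg) cells held with or without thymic stromal lymphopoietin (TSLP), an epithelial cytokine. They are the rows of the deposited gene table that carry the names Slc3a2, Slc7a5, Slc7a6, Slc7a7, Slc1a5, Slc1a4, Slc38a1, Slc38a2, Slc7a1 and Slc43a1, which makes 10 of 24418 listed genes. All 10 were found, 9 had a read in every library, and 9 passed the filter for the test between groups. Slc7a7 did not pass that filter, which asked for 2 or more libraries with a normalized count of 10 or higher.

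The Treg cells were sorted from lymphoid tissue, taken from the spleen and the lymph nodes, and the donors were Foxp3 YFP-Cre mice, in which the Foxp3 gene drives a fusion of yellow fluorescent protein and Cre recombinase. Mice were 8 to 12 weeks old by the study's general methods, and both groups carry the same Foxp3 YFP-Cre allele. The TSLP group was kept for 3 h with 100 ng/mL TSLP and the control group for the same time with phosphate-buffered saline (PBS). Each group holds 2 RNA sequencing libraries, called PBS 1, PBS 2, TSLP 1 and TSLP 2, and nothing says whether they came from separate mice or cultures, so that the p-values measure only the spread between these samples, which may be technical. Values of the 4 libraries are given throughout in the order PBS 1, PBS 2, TSLP 1, TSLP 2. The libraries held 11328132, 10724392, 11761234 and 10271571 reads on genes. The comparison was made to find which pathways the cytokine sets in motion in Treg cells besides JAK-STAT signalling.

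Amino acids cross the plasma membrane through carriers that differ in what they take and what drives them. The CD98 heavy chain, encoded by Slc3a2, carries no amino acid itself but joins a light chain of the Slc7 family and brings it to the cell surface. Slc7a5 (LAT1) is the light chain that imports leucine and other large neutral amino acids in exchange for glutamine, and the glutamine it gives up comes in through sodium-driven carriers such as Slc1a5 (ASCT2) and Slc38a2 (SNAT2). Leucine inside the cell is one of the signals for the growth kinase complex mTORC1, and T cells lacking Slc7a5 or Slc3a2 are known to expand poorly. When amino acids run short, uncharged tRNA activates the kinase GCN2, the transcription factor ATF4 is made, and it turns on many of these transporter genes through amino acid response elements.

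Promoter sequence was at hand for 7 of the 10 genes, in 13 windows of RefSeq on GRCm38.p6 that run from 250 bases before to 50 bases after a gene start. They were searched on both strands for the amino acid response element TGATGNAA and for the E-box CACGTG, which Myc and related factors can bind. The response element was found in the windows of 2 genes, Slc1a4 and Slc7a7, and the E-box in the window of 1 gene, Slc43a1. Of all 32851 RefSeq windows of the same length, 3.97% hold the response element and 7.15% the E-box, and a match describes the letters only. These shares are per window while the counts above are per gene. A gene can have several windows, so the 2 cannot be set against each other directly. The matches are shown because they are all that the search found in these windows, and the genes that hold them are the 3 with the lowest levels below. The 3 genes without promoter sequence are among those with higher levels and were not searched. A link between matches and level was not tested. Each line is read 5′ to 3′ along the gene, with the matching letters in capitals.
Slc1a4 at chr11:20332710-20332747, minus strand, response element read on the opposite strand from 4 bases before the start: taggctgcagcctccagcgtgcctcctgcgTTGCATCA
Slc7a7 at chr14:54417938-54417975, minus strand, response element from 1 base before the start: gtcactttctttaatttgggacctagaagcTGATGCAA
Slc7a7 at chr14:54418048-54418115, minus strand, response element from 141 bases before the same start: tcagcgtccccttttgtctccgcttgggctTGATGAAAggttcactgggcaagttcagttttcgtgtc
Slc43a1 at chr2:84840229-84840294, plus strand, E-box from 64 bases before the start: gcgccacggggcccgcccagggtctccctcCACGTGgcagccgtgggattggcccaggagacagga
The Slc7a7 match next to the start lies also in the window of another annotated start of that gene. No match in the other windows says only that these letters are not in them.

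The libraries were checked against their labels first. Foxp3, the defining factor of Treg cells, had 221.9, 472, 407 and 469.6 CPM, a read count scaled to the same total of reads on genes in each library, and Ctla4, an inhibitory receptor of Treg cells, had 1284, 1142, 1198 and 1253 CPM. Of the 6 Treg markers, Foxp3 and 3 others were lowest in PBS 1: Ikzf2 had 568 CPM against 953 to 996 in the other libraries, Ikzf4 72.7 against 135 to 175 and Il2ra 342 against 433 to 498, while Ctla4 and Tnfrsf18 were highest there, Tnfrsf18 at 532 against 348 to 427. Markers of other cells were low: the summed level of 2 CD8 T cell genes was 7.83 to 13.4 CPM, with Cd8b1 the most abundant, and that of 4 B cell genes 0.618 to 10.4 CPM, with Cd79b the most abundant and Pax5 at 0 reads in every library. The 6 myeloid genes summed to 61.5, 40.1, 41.2 and 42.4 CPM, most of it Cst3, a protease inhibitor gene that many cells express, and Adgre1 was at 0 reads. The 4 haemoglobin genes had no read in any library, and of 5 erythroid genes only Alas2 was seen, at up to 0.681 CPM.

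PBS 1 stood apart from the other libraries. Besides the Treg markers, of which 4 were lowest and 2 highest in it, its deviation from the mean of the 4 libraries fell with exon length, with a Spearman correlation of -0.66 over 2635 well-expressed genes, while in the other 3 libraries the same value was 0.57, 0.40 and 0.31. The difference of TSLP minus PBS thus rose with exon length as well, at 0.52. The median exon length of the 10 transporters, 4372 bases, was close to that of all tested genes, 4466 bases, but Slc38a1 with 17236 bases and Slc7a1 with 11530 bases are long and Slc7a7 with 3315 bases and Slc3a2 with 3529 bases are the shortest of the set. Values with PBS 1 left out are therefore given where they change a direction, and for named genes also where they change a call.

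The 10 genes fell into 3 that were abundant, 4 at middle levels and 3 close to the limit of counting, and between PBS and TSLP places were exchanged only by neighbours whose libraries overlap. Levels of different genes are compared here as the normalized count per kilobase of exon (per kb), the normalized count being the reads of a gene divided by a size factor for the library. Slc3a2 was first with 1439 ± 240.6 per kb (SD, n = 4 libraries), Slc1a5 second with 1168 ± 46.8 and then Slc38a2 with 1082 ± 193.8. These 3 together held in PBS 1 79.3% of the summed per-kb level of the 10 genes, followed by 76.0%, 75.5% and 76.6% in the other libraries. Among 10944 tested genes with a known exon length, Slc3a2 took place 273 (top 2.49%), Slc1a5 place 352 (top 3.22%) and Slc38a2 place 380 (top 3.47%).

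**Figure D1:**
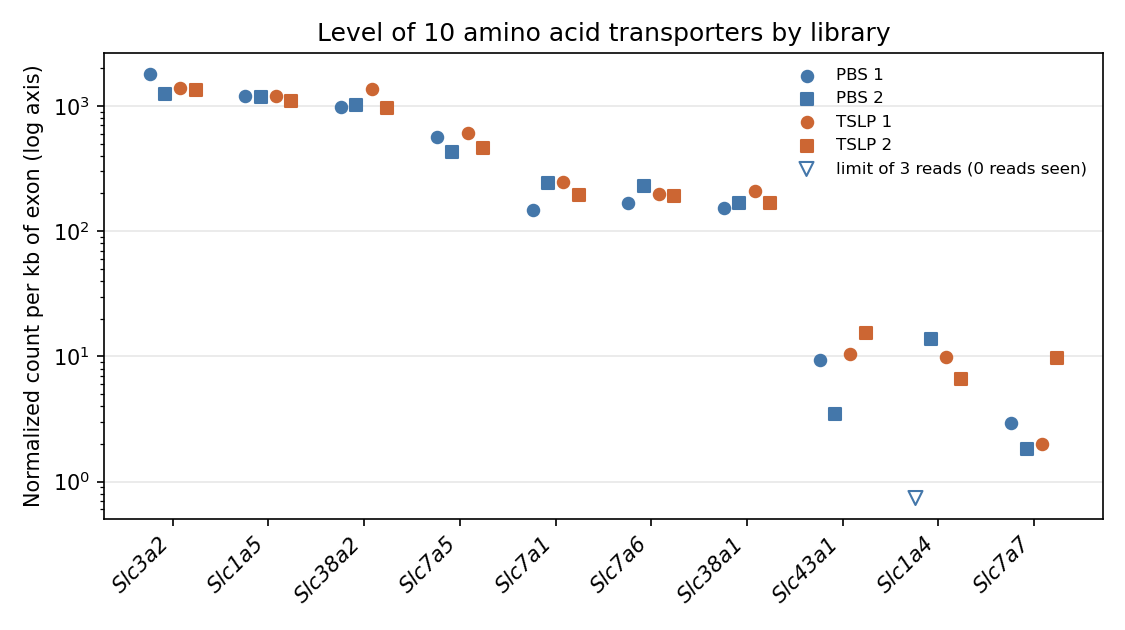
Normalized count per kilobase of exon on a log axis for the 10 transporters, ordered by their mean, with 1 point per library and the limit set by 3 reads for the library without a read. Slc3a2, Slc1a5 and Slc38a2 lie near 1000, Slc7a5 at 513, Slc7a1, Slc7a6 and Slc38a1 near 200, and Slc43a1, Slc1a4 and Slc7a7 at 9.64 and below.

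Slc7a5 followed at 513 ± 83.9 per kb, then Slc7a1 at 207.7 ± 47.3, Slc7a6 at 196 ± 25.8 and Slc38a1 at 174 ± 24.3 (SD, n = 4 libraries each). Slc43a1 had 9.64 ± 4.87, Slc1a4 7.56 ± 5.82 and Slc7a7 4.12 ± 3.8 per kb, and these 3 made up 0.452% of the summed level on average. Not every neighbour in this order could be separated. The 4 libraries of Slc3a2 lay above those of Slc1a5 (1.23-fold in the means), those of Slc38a2 above those of Slc7a5 (2.11-fold), those of Slc7a5 above those of Slc7a1 (2.47-fold) and those of Slc38a1 above those of Slc43a1 (18.1-fold). The libraries overlapped for Slc1a5 and Slc38a2 (1.08-fold), Slc7a1 and Slc7a6 (1.06-fold), Slc7a6 and Slc38a1 (1.13-fold), Slc43a1 and Slc1a4 (1.27-fold) and Slc1a4 and Slc7a7 (1.83-fold).

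The order depends on how length is counted. With the longest transcript in place of the union of exons, Slc38a1 moved from place 7 to place 5, ahead of Slc7a1 and Slc7a6, and the other 7 kept their places. Without a correction for length Slc38a2 was first, with a mean normalized count of 9558, against 5078 for Slc3a2 and 4873 for Slc1a5. Set among 62 amino acid transporter genes, the 10 and a list of 52 others, the first 4 places per kb went to Slc3a2, Slc1a5, Slc38a2 and Slc7a5, and the next 3 to Slc38a10, Slc25a38 and Slc6a6 of the other list.

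None of the tested transporters passed the test of TSLP against PBS. In the limma test over 11392 genes, 0 of the 9 tested members passed an adjusted p of 0.05 (Benjamini-Hochberg), and so did 0% of all genes, with a smallest adjusted p of 0.0643. At an unadjusted p under 0.05, 0 of 9 members passed, beside 3.75% of all genes by limma (427 genes), 2.05% by edgeR's quasi-likelihood test (234 genes) and 2.05% by DESeq2 (234 genes). Fold changes were above 0 on the log2 scale for 6 members and below 0 for 3, with a median of 0.20 beside 0.01 over all tested genes. That median was -0.034 without TSLP 1, 0.38 without TSLP 2 and 0.057 with the trend over exon length removed, so that its sign depends on single libraries. Groups that do not overlap, meaning both TSLP libraries on 1 side of both PBS libraries, were found in 1 of 9 members (Slc43a1, higher), beside 14.5% of all tested genes higher and 14.4% lower. The members' p-values are those of the whole table, with fold changes on the log2(normalized count + 1) scale. An RNA level of sorted cells in bulk cannot tell fewer cells of a type from less RNA per cell.

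**Figure D2:**
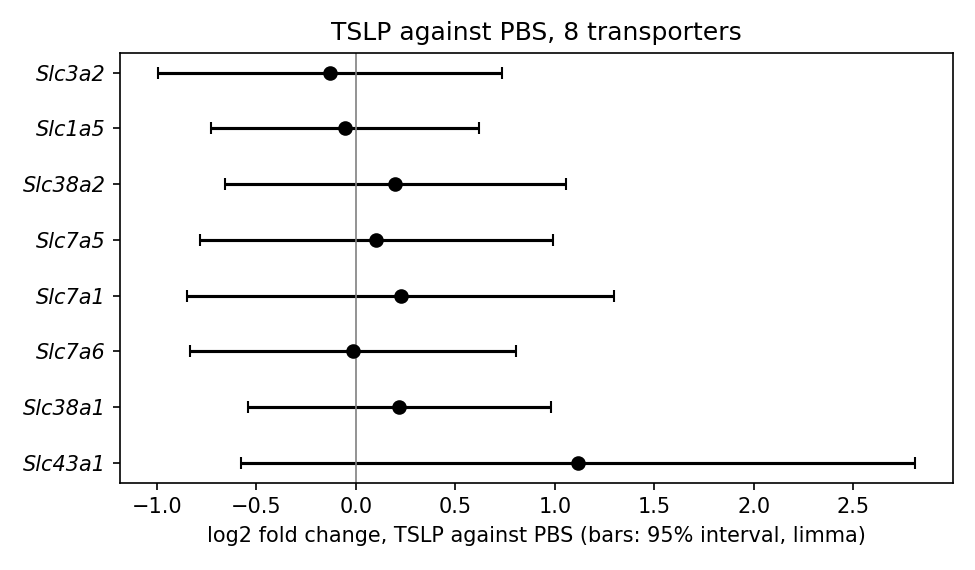
log2 fold change, TSLP against PBS, with the 95% confidence interval of the limma fit, for 8 of the tested transporters. Every interval crosses 0, and Slc43a1 has the highest value at 1.12. Slc1a4, whose interval runs from -4.01 to 8.30, is left out for scale, and Slc7a7 was not tested.

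The CD98 complex comes first. Slc3a2, the heavy chain (chr19:8706882-8723369 on mm10, minus strand), had normalized counts of 6314, 4383, 4868 and 4749. PBS 1 was the highest and PBS 2 the lowest, so that the TSLP libraries lay between the controls. Its log2 fold change was -0.13 (SE 0.30, 95% interval -0.99 to 0.73, limma unadjusted p = 0.691), and without PBS 1 it was 0.13.

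Slc7a5, the leucine-importing light chain (chr8:121881150-121907694, minus strand), had normalized counts of 2079, 1590, 2247 and 1695. Replicate 1 was higher than replicate 2 in each group, 1.31-fold with PBS and 1.33-fold with TSLP, and the groups overlapped. The means were 1834 ± 346 with PBS and 1971 ± 390.2 with TSLP (SD, n = 2), a log2 fold change of 0.10 (SE 0.31, 95% interval -0.78 to 0.99, limma unadjusted p = 0.759). It was -0.09 without PBS 2 and -0.10 without TSLP 1. The interval corresponds to a fold between 0.580 and 1.99.

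The 2 other light chains of CD98 in the set, the y+LAT carriers, exchange arginine and lysine for neutral amino acids. Slc7a6 (chr8:106168857-106198706, plus strand) had 763 and 1050 with PBS and 898 and 874 with TSLP, the TSLP pair lying inside the PBS pair. Its log2 fold change was -0.01 (SE 0.29, 95% interval -0.84 to 0.81, limma unadjusted p = 0.962). Slc7a7 (chr14:54369442-54417780, minus strand), the form known from kidney, gut and macrophages, had 10, 6, 7 and 31 reads. TSLP 2 was the high library. Of the 6 myeloid markers, Csf1r, the receptor for the macrophage growth factor, had 1, 0, 1 and 27 reads, high in TSLP 2 as well. The others were not highest there: Cd68 had 174, 66, 59 and 16 reads, Itgam 23, 19, 4 and 7, Lyz2 1, 43, 37 and 40, Cst3 498, 302, 383 and 346, and Adgre1 0 in every library. The cells had been selected magnetically for CD4 before the sort, and the part of myeloid cells in the Slc7a7 value was not tested. Of the exon bases of Slc7a7, 7.00% overlap Oxa1l on the opposite strand, and whether the counting used strand is not stated.

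Per kb, the heavy chain was more abundant than its light chains in every library. Slc3a2 stood 3.19-fold, 2.90-fold, 2.28-fold and 2.94-fold above Slc7a5. Against the sum of Slc7a5, Slc7a6 and Slc7a7 the ratio was 2.45, 1.88, 1.71 and 2.04, and PBS and TSLP overlapped in both ratios. Slc7a5 made up 76.8%, 64.9%, 75.3% and 69.5% of the summed light chains. The other light chains that CD98 can take were not part of this sum.

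**Figure D3:**
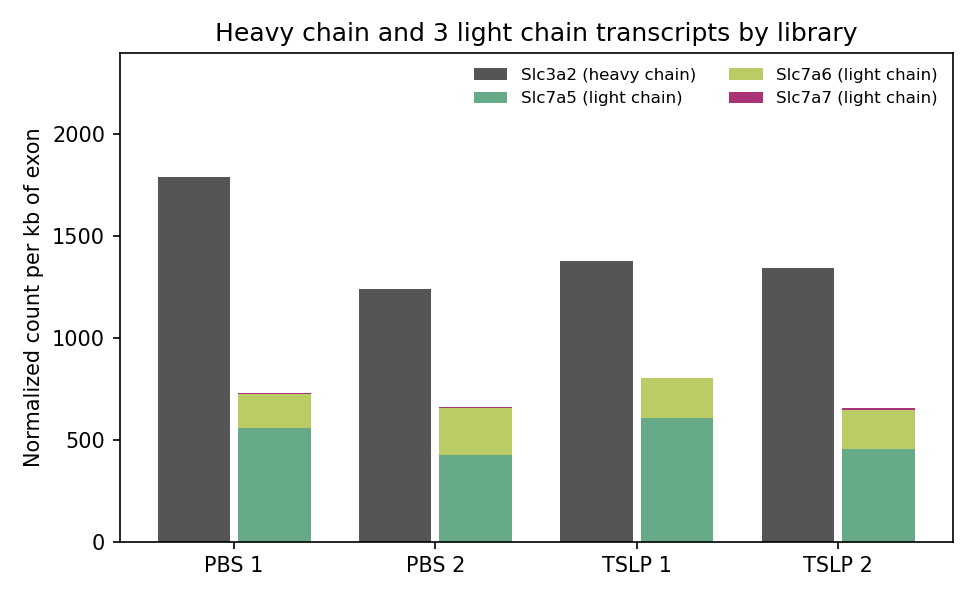
Level per kilobase of exon of the CD98 heavy chain Slc3a2 and of its light chains Slc7a5, Slc7a6 and Slc7a7 in each library. The heavy chain exceeds the summed light chains in all 4 libraries, by 1.71-fold in TSLP 1 to 2.45-fold in PBS 1.

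Among the carriers of glutamine and small neutral amino acids, Slc1a5 was the steadiest gene of the set. Slc1a5 (chr7:16781340-16798274, plus strand), a sodium-dependent exchanger of glutamine, serine and other neutral amino acids, had normalized counts of 5017, 4910, 4978 and 4588. Its coefficient of variation over the 4 libraries was 4.01%, where counting alone would give 1.42%. The log2 fold change was -0.05 (SE 0.24, 95% interval -0.73 to 0.62, limma unadjusted p = 0.829).

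Slc38a2 (chr15:96687392-96699730, minus strand) encodes a sodium-coupled importer of glutamine and alanine that cells raise when starved of amino acids. It had 8683 and 8973 with PBS and 12109 and 8469 with TSLP, so that TSLP 1 alone was high and TSLP 2 was the lowest of the 4. Its log2 fold change of 0.20 (SE 0.30, 95% interval -0.66 to 1.06, limma unadjusted p = 0.547) was -0.06 without TSLP 1.

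Slc38a1 (chr15:96571418-96642913, minus strand), a related glutamine importer and a neighbour of Slc38a2 on chromosome 15, had 2632 and 2896 with PBS and 3603 and 2867 with TSLP. TSLP 1 was again the high library, and the other 3 lay close together. The log2 fold change was 0.22 (SE 0.27, 95% interval -0.54 to 0.98, limma unadjusted p = 0.459), and it was -0.04 once the trend of each library over exon length was removed. Without TSLP 1 it was 0.05 and without TSLP 2 it was 0.38. The ratio of Slc38a2 to Slc38a1 in normalized counts was 3.30, 3.10, 3.36 and 2.95.

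Slc1a4 (chr11:20302180-20332713, minus strand), a carrier of alanine, serine, cysteine and threonine, was scarce. It had 0, 54, 41 and 25 reads. The 0 in PBS 1 allows up to 3 reads, or a normalized count of 2.91, for counting error only, and PBS 2 was the highest library. The fitted log2 fold change of 2.14 (SE 2.15, 95% interval -4.01 to 8.30, limma unadjusted p = 0.379) rests on the 0 in PBS 1. It was -0.75 without PBS 1 and 5.03 without PBS 2, with the lone PBS library assumed to vary like the TSLP group. By edgeR with all libraries the log2 fold change was 0.26. Its mean normalized count of 29.7 lies at the border of 2 bins of expression: a library without reads was seen for 653 of 1204 tested genes (54.2%) with a mean of 10 to 30 and for 97 of 1738 (5.58%) with a mean of 30 to 100.

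The cationic carrier Slc7a1 (chr5:148327410-148399904, minus strand), the main importer of arginine and lysine in many cells, had normalized counts of 1686 and 2784 with PBS and 2860 and 2246 with TSLP. PBS 1 was the low library, and PBS 2 lay between the TSLP libraries. Its log2 fold change was 0.23 (SE 0.37, 95% interval -0.85 to 1.30, limma unadjusted p = 0.581), and it was -0.14 without PBS 1, 0.59 without PBS 2 and 0.06 with the trend over exon length removed. The PBS replicates differed 0.72 on the log2 scale, more than 0.33, the median of tested genes with a mean normalized count of 1000 to 3000.

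Slc43a1 (chr2:84838850-84863594, plus strand) encodes LAT3, which lets leucine and other large neutral amino acids through without sodium and without exchange. It had 55, 20, 63 and 84 reads, or normalized counts of 53.3, 20.0, 59.4 and 87.8. Both TSLP libraries were above both PBS libraries, by a small margin between PBS 1 and TSLP 1. The means were 36.7 ± 23.5 and 73.6 ± 20.1 (SD, n = 2), a log2 fold change of 1.12 (SE 0.59, 95% interval -0.58 to 2.81, limma unadjusted p = 0.137, adjusted p = 0.9998). The edgeR test gave an unadjusted p of 0.267. An exact permutation test of the 4 libraries (two-sided) gave p = 0.33, the smallest that 2 against 2 libraries allow. Leaving out PBS 1, the nearer control, gave 1.80 on the log2 scale with an unadjusted p of 0.0307 by limma, again with a lone PBS library, and leaving out PBS 2 gave 0.43.

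The spread between libraries limited what could be seen. The coefficient of variation over the 4 libraries was 4.01% for Slc1a5, between 13.2% (Slc7a6) and 22.8% (Slc7a1) for the other abundant and middle genes, and 50.5%, 76.9% and 92.1% for Slc43a1, Slc1a4 and Slc7a7. Counting alone would give 1.01% (Slc38a2) to 3.32% (Slc7a6) in the first 7 genes and 13.4%, 18.3% and 27.2% in the last 3. In each of the 10 genes the spread was above that of counting, but it also holds any difference between PBS and TSLP. TSLP 1 was above TSLP 2 in 8 of the 9 tested members, the exception being Slc43a1, and PBS 1 was above PBS 2 in 4 of 9. Over all 11392 tested genes these counts were 5683 and 5491.

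**Figure D4:**
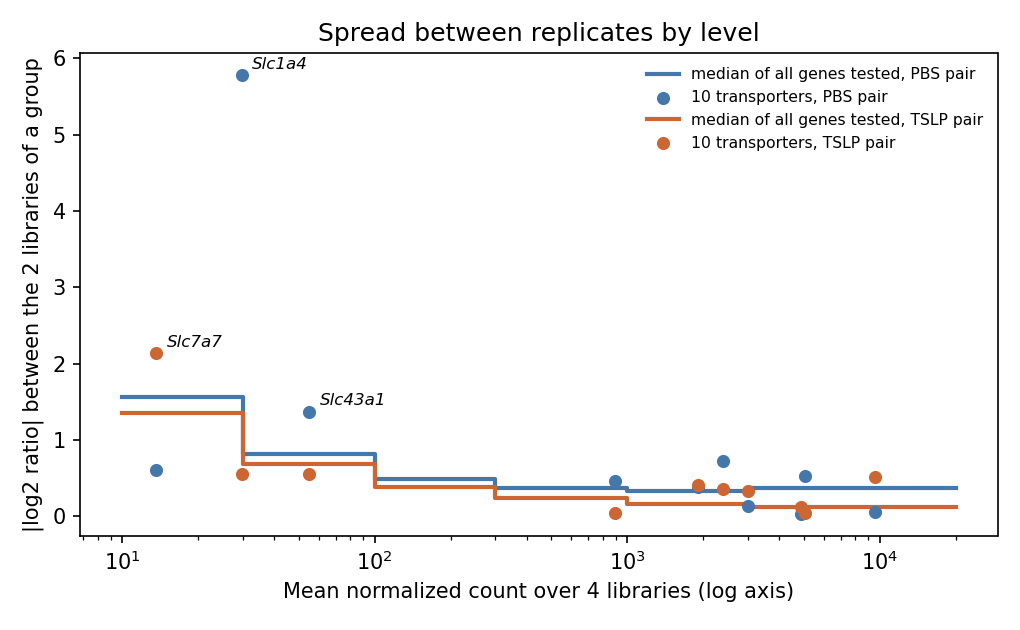
Difference between the 2 replicates of a group on the log2 scale against the mean normalized count, with the members as points and the median of all tested genes in bins of expression as lines, for PBS and TSLP. The bin medians fall from 1.56 (PBS) and 1.35 (TSLP) at a mean of 10 to 30 to 0.37 and 0.12 at 3000 and above, and Slc1a4 in PBS lies highest at 5.78.

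No tested gene of a wider list of amino acid transporters passed the test with all 4 libraries and the filter. Without the filter, 2 of the list passed an unadjusted p of 0.05 by limma, beside 496 of the 13945 genes with a read. The genes that this fit adds reached a normalized count of 10 in fewer than 2 libraries. Of 52 other amino acid transporter genes, 20 had no read, 23 were tested, 13 had a fold change above 0 and 10 below, and 0 passed an unadjusted p of 0.05, beside 3.75% of all genes. Their median log2 fold change was 0.05. It was -0.049 without PBS 1, -0.17 without PBS 2, -0.015 without TSLP 1 and 0.17 without TSLP 2. Of the 23 genes, 17.4% did not overlap between groups, beside 28.9% of all tested genes. Slc38a10, a member of the glutamine transporter family, had normalized counts of 1897, 1465, 1803 and 1443 (log2 fold change -0.05, limma unadjusted p = 0.881). Slc6a6, the taurine transporter, had 1450, 2176, 1999 and 1692 (0.05, limma unadjusted p = 0.887). Without PBS 1 the log2 fold changes were 0.14 for Slc38a10 and -0.24 for Slc6a6. Both sets of libraries overlapped between PBS and TSLP.

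Carriers of the mitochondrial membrane were among the more abundant of these. Slc25a38, a glycine carrier needed for haem synthesis, had normalized counts of 655 and 732 with PBS and 575 and 562 with TSLP. Both TSLP libraries were lower, at a log2 fold change of -0.28 (limma unadjusted p = 0.303). Slc25a44, which carries branched-chain amino acids into mitochondria, had 318, 309, 369 and 216 (log2 fold change -0.15, limma unadjusted p = 0.706).

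The genes of the ATF4 response, several of which are known to move with the transporters, were counted in the same way. Of 32 genes 25 were tested, 7 had a fold change above 0 and 18 below, with a median of -0.16, and 0 passed the adjusted test. The median was 0.10 without PBS 1 and 0.04 without TSLP 2, so that the direction of the list depends on single libraries. With the trend over exon length removed it was -0.061. Groups did not overlap for 28% of the 25 genes, beside 28.9% of all. At an unadjusted p under 0.05, 0 were higher and 1 was lower, beside 1.69% and 2.06% of all genes. That gene was Gpt2, a mitochondrial alanine aminotransferase, with 41, 31, 0 and 4 reads, so that both TSLP libraries were lower. Gpt2 passed the filter only through PBS, with normalized counts of 39.7 and 31.0 there and 0 and 4.18 with TSLP. Its test is therefore not independent of its direction, and no conclusion is drawn from it. With a stricter filter of 50 Gpt2 was not tested. Its fitted log2 fold change was -3.99 (SE 0.91, limma unadjusted p = 0.0141, adjusted p = 0.896), and the unadjusted p was 0.0810 by edgeR (log2 fold change -4.03) and 0.0203 by DESeq2 (-4.10). By limma it was 0.0886 without PBS 1 and 0.0746 without PBS 2, at -3.81 and -4.16. The size of the fold depends on the setting: it was -2.80 without TSLP 1, -5.17 without TSLP 2, -2.57 with a pseudocount of 5 and -1.85 on TMM-scaled CPM.

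The most abundant genes of the list differed more between replicates than between groups. Atf4 itself had normalized counts of 8080, 4655, 5778 and 4551 (log2 fold change -0.26, limma unadjusted p = 0.550). Ppp1r15a, which restarts translation after stress, had 19013, 8788, 14719 and 7693 (-0.28, limma unadjusted p = 0.657). In both genes replicate 1 was the higher library of each group. The same held for Atf3, a stress-induced transcription factor, with 2130, 1231, 1797 and 996 (-0.27, limma unadjusted p = 0.604). It held too for Ddit4, an inhibitor of mTORC1, with 1402, 732, 966 and 685 (-0.32, limma unadjusted p = 0.525). Without PBS 1 the log2 fold change was 0.14 for Atf4, 0.28 for Ppp1r15a, 0.12 for Atf3 and 0.15 for Ddit4. Replicate 1 was higher in both groups for 11 of 25 genes of this list (44%), for 3 of 9 transporters and for 24.0% of all tested genes.

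Enzymes that use amino acids gave a median log2 fold change of -0.03 over 27 tested of 35 genes, with 12 above 0 and 15 below. The median was -0.08 without PBS 2, and 37.0% of the 27 genes did not overlap between groups, beside 28.9% of all tested genes. At an unadjusted p under 0.05, 0 were higher and 1 was lower, beside 1.69% and 2.06% of all genes. It was Bckdhb, a subunit of the enzyme that commits branched-chain amino acids to breakdown, with normalized counts of 92.1 and 71.0 with PBS and 45.2 and 37.6 with TSLP (log2 fold change -0.95, SE 0.28, limma unadjusted p = 0.0319, adjusted p = 0.9998). The unadjusted p was 0.203 by edgeR and 0.247 by DESeq2, so that neither count test made the call. By limma it was 0.0829 without PBS 1, 0.0961 without TSLP 1 and 0.163 without TSLP 2, while the log2 fold change was -0.77, -1.08 and -0.83 there and -0.98 by each count test.

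Odc1, which makes polyamines from ornithine, had normalized counts of 9656, 7598, 9228 and 9012 (log2 fold change 0.09, limma unadjusted p = 0.750). Got1, the cytosolic aspartate aminotransferase, had 5234, 3555, 4977 and 4064 (0.06, limma unadjusted p = 0.863). Sat1, which acetylates polyamines, had 3830, 2277, 2878 and 2370 (-0.18, limma unadjusted p = 0.662), and its log2 fold change was 0.20 without PBS 1. The groups overlapped for all 3. Glud1, which turns glutamate into 2-oxoglutarate, had 3640 and 3805 with PBS and 4000 and 4121 with TSLP, so that its groups did not overlap, at a log2 fold change of 0.13 (limma unadjusted p = 0.620).

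**Figure D5:**
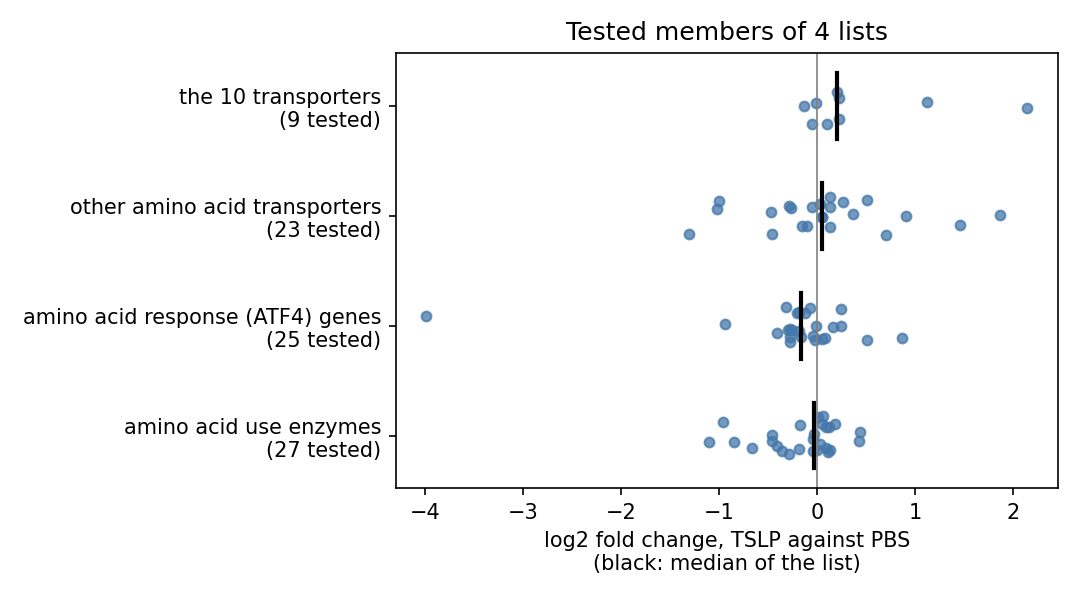
log2 fold change, TSLP against PBS, of each tested gene in the list of 10 transporters and in 3 other lists of amino acid genes, with the median as a black bar. The medians are 0.20, 0.05, -0.16 and -0.03, and Gpt2 lies lowest at -3.99.

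The genes whose pattern over the 4 libraries was nearest to that of Slc7a5 were Vimp, Btg2 and Ddx56. Likeness was the root mean square difference in log2(normalized count + 1), centred over the 4 libraries, among 4487 genes with a mean normalized count of at least 500. It was 0.0230 for Vimp, a membrane selenoprotein gene of the endoplasmic reticulum, 0.0304 for Btg2, an antiproliferative gene, and 0.0328 for Ddx56, an RNA helicase gene. Btg2 had normalized counts of 7816, 6004, 8089 and 6435, high in replicate 1 of each group as Slc7a5 was. Among the members of the set that reached this mean, Slc38a2 was nearest to Slc7a5 at 0.165 (place 652 of the genes compared). It was followed by Slc1a5 at 0.180 and by Slc3a2, the partner chain of Slc7a5, at 0.182 (place 856).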

How the data were processed

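RNA of sorted Treg cells (2 PBS and 2 TSLP libraries) was sequenced by the authors as 50-base single-end reads from a directional kit, mapped to mm10 with HISAT2 and counted per gene with HTSeq, DESeq2 being named as well in the submitters' processing notes. The annotation and the strand setting of the counting are not given in the sources used here. The deposited values are a signal: read counts of the authors divided by a size factor per library (1.03 for PBS 1, 0.999 for PBS 2, 1.06 for TSLP 1 and 0.957 for TSLP 2). Multiplied back, 100% of the values came within 0.01 of a whole read. Of the gene names, 27 had turned into dates and 4 rows carried a repeated name.

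The 11392 genes that reached a normalized count of 10 in 2 or more libraries were tested with limma 3.58.1 in R 4.3.3, without trend, on log2(normalized count + 1), with Benjamini-Hochberg adjustment over all of them. The recovered reads were tested with edgeR 4.0.16 (quasi-likelihood, TMM) and DESeq2 1.42.0 as alternatives. Exon lengths and gene positions came from GENCODE M21 on mm10 (23307 genes with a length) and promoters from RefSeq. Between 10271571 and 11761234 reads fell on genes, and the limit of 3 reads that a count of 0 allows is 0.255 to 0.292 CPM, for counting error only. The limma fits with and without a trend and the edgeR and DESeq2 tests were also run on simulated counts with known changes. The other steps were not run on simulated data.

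Groups came from the labelled treatment. All transporters are named, and from each other list the members with an unadjusted p under 0.05 and the 4 with the highest mean level per kilobase. The 3 genes most like Slc7a5 are named by root mean square difference. Wars is named as the ATF4 gene with the next lowest unadjusted limma p after Gpt2. The members and lists were chosen with earlier results of these data known. Alternatives were other tests, scalings, filters and pseudocounts, a replicate block, removal of the trend over exon length and leaving out each library.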

Additional observations from a re-analysis of the deposited data

How the results depend on the processing

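With 2 libraries a group the 95% intervals of the abundant and middle transporters reached up to a 2.46-fold change, and the scarce ones add a wide counting error. Over all genes, 0 adjusted calls were made under each alternative run but a pseudocount of 0.5, which gave 44. The 427 unadjusted calls became 234 with edgeR, 234 with DESeq2 and 192 with limma with a mean-variance trend, which was chosen after seeing the data, and 391 to 1263 when a library was left out (1263 without PBS 2). Leaving a group with 1 library assumes that it varies like the other group. Unadjusted calls among the 10 transporters stayed at 0 under the alternatives that keep all libraries and were 0 to 1 when a library was left out, namely Slc43a1 without PBS 1 and Slc1a4 without PBS 2. Those among other amino acid transporters went from 0 to 2 without a filter, where 496 calls were made over the 13945 genes with a read. Those among ATF4 genes went from 1 to 2 with DESeq2, TMM, CPM, the trend or a pseudocount of 5 and to 3 without a filter. Over all genes there were 534 with TMM, 528 with CPM and 514 with a pseudocount of 5. The 1 ATF4 call with edgeR was not Gpt2, nor was the 1 with a filter of 50, where Gpt2 was not tested. Unadjusted calls among enzymes that use amino acids went from 1 to 2 with the trend and to 0 with the replicate block. Bckdhb was not among the 2, with an unadjusted p of 0.174 by limma with the trend. The replicate numbers are not stated to pair samples, and the deviations of samples with the same number did not correlate (r = 0.00072 over 11392 genes); with the block, 457 unadjusted and 0 adjusted calls were made, and the unadjusted p of Bckdhb was 0.0501.

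Without a library, the median log2 fold change ran from -0.034 to 0.38 over the transporters, from -0.17 to 0.17 over the other transporters, from -0.37 (without PBS 2) to 0.10 (without PBS 1) over ATF4 genes and from -0.082 to -0.042 over the enzymes. For single genes it ran from -0.10 to 0.31 for Slc7a5, -0.39 to 0.13 for Slc3a2, -0.11 to 0.0042 for Slc1a5, -0.75 to 5.03 for Slc1a4, -0.14 to 0.59 for Slc7a1, -0.24 to 0.22 for Slc7a6, -0.060 to 0.46 for Slc38a2, 0.054 to 0.38 for Slc38a1, -0.23 to 0.14 for Slc38a10, -0.24 to 0.34 for Slc6a6 and -0.53 to 0.24 for Slc25a44. It ran from -0.84 to 0.28 for Ppp1r15a, -0.66 to 0.14 for Atf4, -0.70 to 0.15 for Atf3, -0.78 to 0.15 for Ddit4, -0.082 to 0.26 for Odc1, -0.22 to 0.34 for Got1 and -0.55 to 0.20 for Sat1. With the trend over exon length removed, Slc7a6 was at 0.0051, Slc38a1 at -0.036 and Slc6a6 at -0.053, the reverse of their signs above. The causes of these shifts were not tested.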

Other observations

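Genes of branched-chain amino acid breakdown and its control were grouped after their values had been seen, so they carry no test. Of Bcat1, Bcat2, Bckdha, Bckdhb, Dbt and Bckdk, 5 of 6 had a log2 fold change below 0, where the median of all tested genes was 0.01. Bcat2, the mitochondrial aminotransferase that starts the breakdown, had 1044 and 634 reads in PBS 1 and PBS 2 against 543 and 476 in TSLP 1 and TSLP 2 (log2 fold change -0.67, limma unadjusted p = 0.126). PBS 1, which stood apart above, was the highest library of Bcat2, so that the size of this fold rests in part on it. PBS 1 was also the highest library of Bckdha, Bckdhb and Dbt. PBS 2 lay between the TSLP libraries for Bckdha (normalized counts of 288 against 330 and 234) and for Dbt (149 against 105 and 154). For Bckdhb it stayed above both (71.0 against 45.2 and 37.6). The shared direction thus rests in part on PBS 1. Bcat1, its cytosolic counterpart, went the other way with 94 and 99 reads against 127 and 132 (log2 fold change 0.43, limma unadjusted p = 0.161). In both genes the groups did not overlap, as was so for 28.9% of all tested genes.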
